A study of Mus musculus with 6 samples.

Results

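The proteins of the mitochondrial ribosome were followed in mouse liver through the counts of their nuclear genes. The members are the protein-coding genes whose symbols begin with Mrpl or Mrps followed by a digit, 78 of the 55471 genes counted. Of these, 51 encode proteins of the large subunit and 26 proteins of the small subunit. The remaining gene, Mrps36, carries a ribosomal name, but its product is a subunit of the 2-oxoglutarate dehydrogenase complex. Bulk RNA sequencing covered livers of male wild-type (WT) C57BL/6J mice, a common inbred strain, with 3 livers from mice fasted for 16 h and 3 from mice fasted for 4 h. All 6 mice were WT without any transgene or agent named, age is not given in the sources used here, and each library is treated as 1 animal. The series is about cholesterol transport in liver without vesicles, and its labels state no question about mitochondrial ribosomes.

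The mitochondrial ribosome translates the mRNAs of mitochondrial DNA, which encode core subunits of the respiratory chain and of ATP synthase. Its rRNAs come from mitochondrial DNA, whereas all of its proteins are encoded in the nucleus, made in the cytosol and imported. Some of these proteins descend from bacterial ribosomal proteins and others exist only in mitochondria. Hepatocytes hold many mitochondria, which oxidise fatty acids and make ketone bodies during fasting. Among the transcription factors linked to genes for mitochondrial proteins are NRF1, ETS factors such as GABP, and YY1, with the coactivators PGC-1alpha and PGC-1beta.

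Parts of 4 promoters are shown because they carry 2 of the motifs that were frequent among the members. Mrps27 and Mrps22 fell after 16 h. Mrpl12 and Mrpl17 lay on the other side of the range and did not pass the test with all 6 libraries. The 4 were picked with their direction known, and a link of motif with direction was not tested. Sequences are RefSeq promoter windows of GRCm38.p6, printed 5′ to 3′ on the strand of the gene, and they end upstream of the gene's first annotated exon. Capitals mark CCGGAAG or its reverse complement (an ETS motif) in Mrps27 and Mrps22, and GCGC followed by any base and TGCGC, or the reverse complement (an NRF1 motif), in Mrpl12 and Mrpl17.
Mrps27 (chr13:99344706-99344785, plus strand): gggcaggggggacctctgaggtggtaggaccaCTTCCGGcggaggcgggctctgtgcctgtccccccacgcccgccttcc
Mrps22 (chr9:98601680-98601799, minus strand): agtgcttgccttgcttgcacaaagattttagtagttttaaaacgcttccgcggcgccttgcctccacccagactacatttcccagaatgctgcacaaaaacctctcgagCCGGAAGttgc
Mrpl12 (chr11:120484517-120484612, plus strand): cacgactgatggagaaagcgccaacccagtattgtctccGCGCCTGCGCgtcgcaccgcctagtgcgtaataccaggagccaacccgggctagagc
Mrpl17 (chr7:105811100-105811207, minus strand): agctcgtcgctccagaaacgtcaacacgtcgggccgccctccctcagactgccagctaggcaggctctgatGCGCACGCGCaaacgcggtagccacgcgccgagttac
Windows from 250 bases before to 50 bases after the start were found for 69 of the 78 members, and 68 of these genes were tested for a change. On either strand, the NRF1 motif was present in 13 of the 68 windows (19.1%), against 11.4% of the windows of 9736 tested protein-coding genes. CCGGAAG was present in 25 (36.8%), against 19.8%, and AAGATGGC, a YY1 motif, in 12 (17.6%), against 5.22%. The last letters of CCGGAAG can be the first letters of AAGATGGC, so that 1 stretch may count for both. At least 1 of these 3 motifs was found in 42 windows (61.8%), against 31.9%. Among the 9 members called lower that had a window, 3 carried CCGGAAG, 2 carried AAGATGGC and 1, Mrpl39, carried the NRF1 motif. CACGTG, the E-box bound by MYC among others, was in 5 windows (7.35%), against 11.6%. Median GC content of the windows was 58.0% for the members and 60.7% for the protein-coding genes, and no test was made of these shares. A match is a run of letters and no measured binding site.

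A library stood apart before the groups were compared. Library sizes lay between 15173653 and 26572532 counts assigned to genes, and summed hepatocyte markers between 87270 and 100800 CPM (counts-per-million, on libraries scaled by trimmed means of M-values) in every library. Of the 9 hepatocyte markers tested by edgeR, 3 were higher and 2 lower after 16 h (33.3% and 22.2%, against 9.18% and 9.51% of all genes). Summed over the members, the level was 1894, 1985 and 2024 CPM in the 16 h livers and 2019, 2026 and 2661 CPM in the 4 h livers. The high value belonged to 4 h replicate 3, and the other 5 libraries lay close together. In that library 69 of the 77 tested members (89.6%) lay above both other 4 h livers, at a median of 1.34 times their mean, against 39.2% and 0.991 times over all genes tested. The same library stood at 1.39 times its mates for cytosolic ribosomal proteins (median of 75 genes) and at 1.44 times for nuclear subunits of oxidative phosphorylation (median of 76 genes). All 7 lung epithelial markers together came to 186.2 CPM there, against no more than 8.44 CPM in the others, and 8 neutrophil markers to 16.1 CPM, against no more than 5.24 CPM. Kupffer cell and macrophage markers (8 genes, 1 of them lower after 16 h) summed to 223 CPM there, against 109 to 157 CPM elsewhere. Erythroid markers (6 genes) moved with the fasting groups instead, at 53.4, 99.2 and 89.96 CPM in the 16 h livers and 175.2, 152.7 and 148.4 CPM in the 4 h livers, with 1 of 5 tested genes lower. Stellate cell markers (8 genes, 2 of them lower) summed to 222.7, 145.5 and 187.9 CPM in the 16 h livers and 281.0, 230.8 and 194.7 CPM in the 4 h livers, ranges that overlapped. The sums of endothelial, cholangiocyte and lymphocyte markers overlapped between the groups too. The part of these other tissues and cells in the members' levels was not tested, and results are therefore given with and without 4 h replicate 3. In bulk liver, fewer cells of a type and less RNA per cell cannot be told apart.

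**Figure D1:**
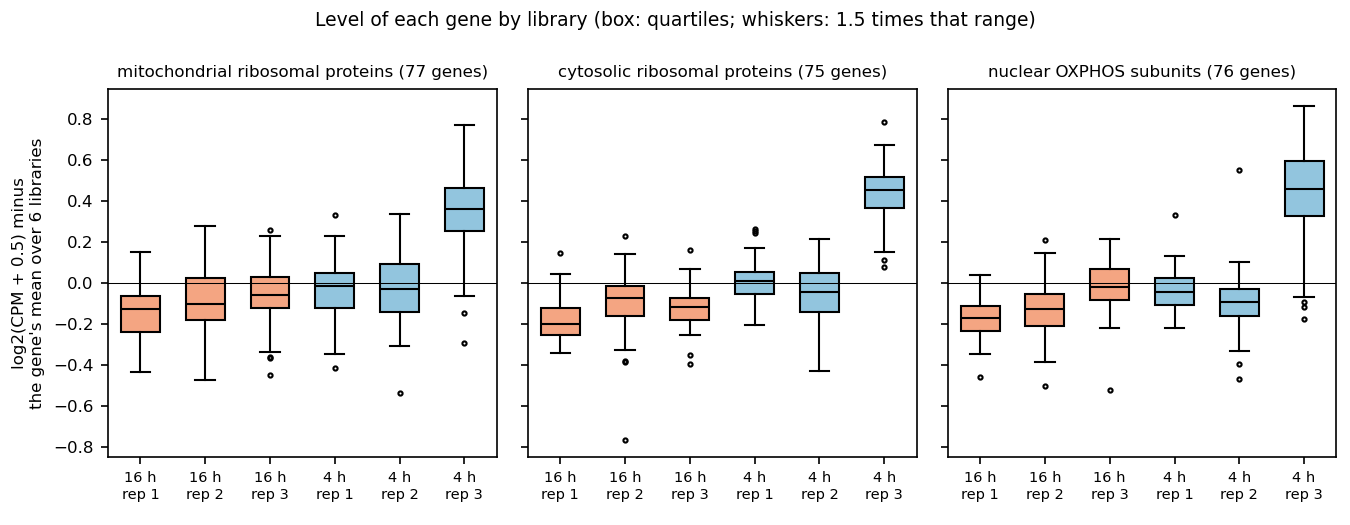
Level of each gene in each library, as log2(CPM + 0.5) minus the gene's mean over the 6 libraries, for 77 mitochondrial ribosomal protein genes, 75 cytosolic ribosomal protein genes and 76 nuclear oxidative phosphorylation genes; 16 h livers are at the left of each panel and 4 h livers at the right. Boxes span the quartiles with the median as a line, and whiskers reach 1.5 times that range; the members' median was 0.36 in 4 h replicate 3 and between -0.12 and -0.02 in the other 5 libraries.

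After the 16 h fast, 11 mitochondrial ribosomal protein genes were lower than after 4 h, 0 were higher, and 66 did not pass the test. Lower calls thus made up 14.3% of the 77 members tested, against 9.51% of all 13812 genes tested, and higher calls 0%, against 9.18% (edgeR quasi-likelihood test, Benjamini-Hochberg adjusted p under 0.05). The gene that did not enter the test was Mrpl53, which had 0 counts in all libraries. The 16 h livers lay wholly below the 4 h livers for 26 members (33.8%) and wholly above for 0, against 19.7% in each direction over all genes. The median log2 fold change of the members was -0.21 (quartiles -0.34 and -0.10), against -0.03 over all genes, and 62 members lay below 0, against 53.2% of all genes. Of these 62, 51 did not pass the test. At an unadjusted p under 0.05 the same test gave 20 members lower and 1 higher, against 17.3% and 16.2% of all genes. DESeq2 with its own adjustment gave 10 lower and 0 higher, against 9.21% and 10.2% of the same genes.

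Without 4 h replicate 3 the shift of the whole family shrank while most of the called genes stayed lower. The median log2 fold change was then -0.06 and 48 members lay below 0. Of the 11 genes 9 were again lower, all but Mrps28 and Mrpl48, and no other member was. These 9 were 11.7% of the members, against 9.73% of all genes lower in that comparison. Mrpl17, Mrps26 and Mrpl12 were higher, which was 3.90% of the members, against 11.1% of all genes. Leaving out 16 h replicate 1, 2 or 3 instead left 2, 3 and 3 members lower (2.60%, 3.90% and 3.90%), against 5.85%, 4.98% and 4.94% of all genes. Leaving out 4 h replicate 1 or 2 left 11 and 12 (14.3% and 15.6%), against 7.42% and 7.81% of all genes. Several calls below were thus lost when any 1 of the 16 h livers was left out, and the edgeR adjusted p without that liver is given beside each. The cause of these losses was not tested.

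**Figure D2:**
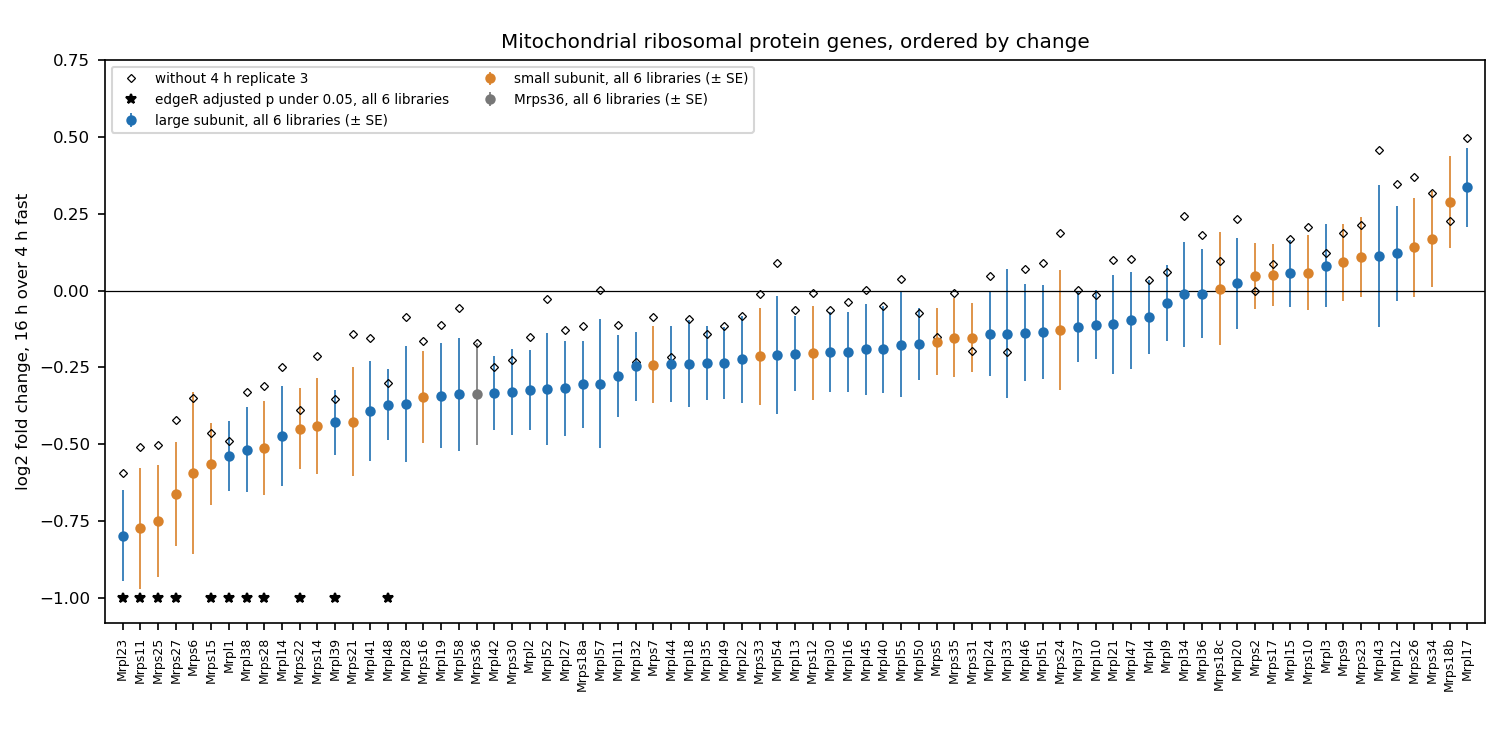
Log2 fold change, 16 h over 4 h, of each of the 77 tested members, ordered by size; filled points with bars are the estimate ± SE from all 6 libraries, open diamonds the estimate without 4 h replicate 3, and stars mark edgeR adjusted p under 0.05. The 11 called genes lie at the left between -0.80 and -0.37, and most diamonds lie above their filled points.

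**Figure D3:**
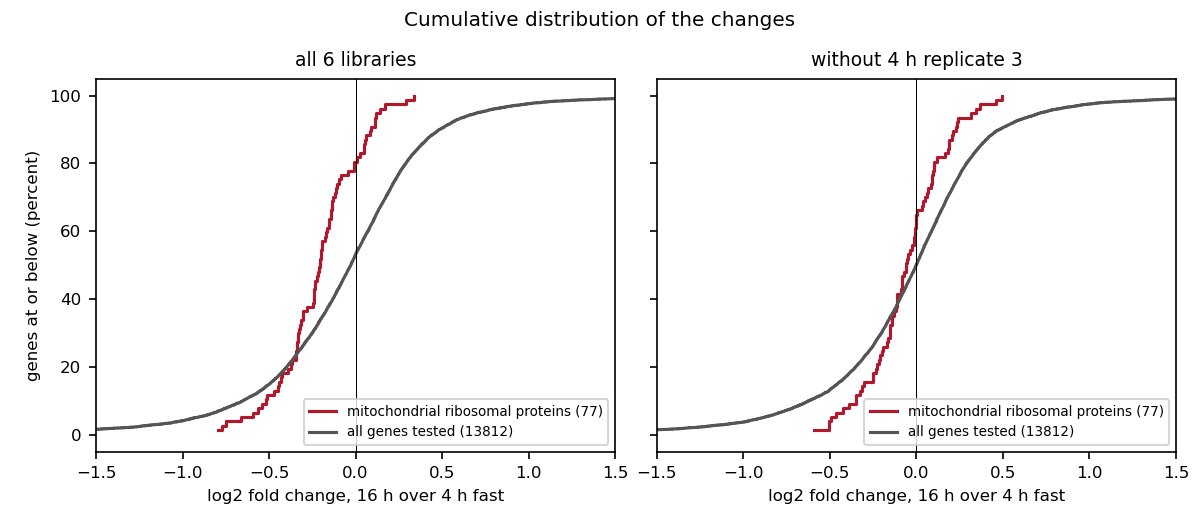
Share of genes (percent, vertical axis) at or below a given log2 fold change, 16 h over 4 h (horizontal axis), for the members (red) and for all genes tested (grey), from all 6 libraries at the left and without 4 h replicate 3 at the right; axes stop at 1.5 in both directions. The members' median lies at -0.21 at the left and at -0.06 at the right.

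Mrpl23, on chromosome 7 at 142532686 to 142540747 of GRCm38, encodes a protein at the rim of the tunnel through which the new chain leaves the large subunit. It had 16.1, 16.1 and 17.3 CPM in the 16 h livers and 24.6, 25.6 and 35.8 CPM in the 4 h livers. The groups did not overlap, and the highest value was that of 4 h replicate 3. Mrpl23 fell by 0.80 ± 0.15 on the log2 scale (SE; edgeR adjusted p = 0.00384) and by 0.59 without 4 h replicate 3 (edgeR adjusted p = 0.00155). Of the 6 proteins listed for the tunnel rim, it was the only one whose gene passed the test (16.7%, against 9.51% of all genes lower). The list's median log2 fold change was -0.17, or 0.03 without 4 h replicate 3. Mrpl17, at the same rim, is on chromosome 7 at 105803206 to 105811099 and was picked after its values were seen, as the member with the highest fold change. It had 60.9, 69.5 and 69.2 CPM in the 16 h livers and 47.4, 47.6 and 63.1 CPM in the 4 h livers. Replicate 3 of the 4 h livers lay within the range of the 16 h livers and the other two below it. The log2 fold change of 0.34 ± 0.13 did not pass the test (edgeR adjusted p = 0.0939), whereas without 4 h replicate 3 Mrpl17 rose by 0.50 (edgeR adjusted p = 0.00222).

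Mrpl1, the counterpart of the bacterial protein L1 that forms a mobile stalk beside the exit site of tRNAs, lies on chromosome 5 at 96209493 to 96266727. Its level was 21.4, 17.8 and 19.1 CPM in the 16 h livers, against 27.5, 27.6 and 29.7 CPM in the 4 h livers. Here 4 h replicate 3 was close to its mates, at 1.08 times their mean. Mrpl1 fell by 0.54 ± 0.11 on the log2 scale (edgeR adjusted p = 0.00744). Mrpl1 and Mrpl23 were the only members that kept their calls under all 12 alternative settings and left-out libraries, with edgeR or DESeq2 adjusted p at most 0.0496 and 0.0262.

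At the other stalk of the large subunit, which recruits elongation factors, 0 of the 4 tested genes passed the edgeR test, against 18.7% of all genes. At an unadjusted p under 0.05 the count was 0 as well, against 17.3% lower and 16.2% higher over all genes. With DESeq2 the count was also 0, against 9.21% and 10.2%. Mrpl12, the protein of that stalk present in several copies, is also reported in human cells to bind the mitochondrial RNA polymerase. Its gene, on chromosome 11 at 120484613 to 120489065, had 85.8, 95.4 and 101.6 CPM in the 16 h livers and 76.8, 72.7 and 110.6 CPM in the 4 h livers. The groups overlapped through 4 h replicate 3, which was the highest of all 6. The log2 fold change was 0.12 ± 0.15 (edgeR adjusted p = 0.620), and 0.35 without 4 h replicate 3 (edgeR adjusted p = 0.0204). Mrpl53, a stalk base protein, had 0 of 125286659 counts, which allows at most 3 counts or 0.0239 CPM over all libraries. Of its exon bases 88.0% lie under the gene Gm42688 on the same strand, and reads in shared exons are assigned to neither gene.

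The central protuberance, where the large subunit meets the small one and the tRNAs, had 8 listed genes. Of these 8 genes 2 were lower and 0 higher by edgeR, against 9.51% and 9.18% of all genes. Counts at an unadjusted p under 0.05 were also 2 lower and 0 higher, against 17.3% and 16.2%. With DESeq2 they were 1 and 0, against 9.21% and 10.2%. Mrpl38, one of the proteins of the protuberance found only in mitochondria, lies on chromosome 11 at 116131817 to 116138868. Mrpl38 had 56.5, 60.7 and 53.5 CPM in the 16 h livers and 71.6, 72.3 and 100.3 CPM in the 4 h livers. The groups were apart, and the change was -0.52 ± 0.14 (log2; edgeR adjusted p = 0.0240), or -0.33 without 4 h replicate 3 (edgeR adjusted p = 0.0165). The edgeR adjusted p was 0.0806, 0.0650 and 0.107 without 16 h replicate 1, 2 and 3. Mrpl48, on chromosome 7 at 100545751 to 100608301, had 20.1, 18.7 and 18.7 CPM at 16 h and 22.1, 25.7 and 26.6 CPM at 4 h. Its fall of 0.37 ± 0.12 on the log2 scale was the least firm of the calls (edgeR adjusted p = 0.0457), with an edgeR adjusted p of 0.127 and 0.0661 without 4 h replicates 2 and 3, and of 0.0990, 0.150 and 0.155 without 16 h replicates 1, 2 and 3. It was also lost with DESeq2 size factors (edgeR adjusted p = 0.0510), with no filter on low counts (edgeR adjusted p = 0.0929) and with DESeq2 (DESeq2 adjusted p = 0.0692). Mrpl58, which also releases chains from stalled ribosomes, had 19.4, 21.1 and 21.8 CPM in the 16 h livers and 23.2, 20.2 and 35.4 CPM in the 4 h livers. Those groups overlapped, and the test was not passed (-0.34 ± 0.18, edgeR adjusted p = 0.224). Without 4 h replicate 3 only 1 of the 8 genes (12.5%), Mrpl38, was lower, against 9.73% of all genes.

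Mrpl39, a large-subunit protein found only in mitochondria and related in fold to a tRNA synthetase, lies on chromosome 16 at 84717576 to 84735742. It had 29.3, 31.2 and 31.3 CPM in the 16 h livers and 40.6, 38.0 and 44.9 CPM in the 4 h livers. The groups lay well apart, and Mrpl39 fell by 0.43 ± 0.11 on the log2 scale (edgeR adjusted p = 0.0168; 0.0151 without 4 h replicate 3). Leaving out 16 h replicate 1, 2 or 3 gave an edgeR adjusted p of 0.0810, 0.0634 and 0.0635. Mrpl44, which has a ribonuclease-like fold, had 15.6 ± 1.3 CPM at 16 h and 18.4 ± 1.5 CPM at 4 h (SD, n = 3 each; edgeR adjusted p = 0.201). Mrps18a, a large-subunit protein in spite of its name, had 23.7 ± 1.6 CPM at 16 h and 29.3 ± 5.9 CPM at 4 h (edgeR adjusted p = 0.158). In the large subunit as a whole, 5 of 50 tested genes were lower by edgeR, a share close to the 9.51% of all genes. By the same test 0 were higher, against 9.18%. An unadjusted p under 0.05 gave 10 lower and 1 higher, against 17.3% and 16.2%. DESeq2 gave 4 and 0, against 9.21% and 10.2%. The median log2 fold change of the 50 genes was -0.21. Without 4 h replicate 3, 4 were lower (8.0%, against 9.73% of all genes), 2 were higher, and the median was -0.06.

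In the small subunit 6 of 26 genes (23.1%) were lower by edgeR, against 9.51% of all genes, and 0 were higher. An unadjusted p under 0.05 gave 10 lower and 0 higher, against 17.3% and 16.2% of all genes. DESeq2 gave 6 and 0, against 9.21% and 10.2%. The median log2 fold change was -0.18, with 9 genes above 0. Without 4 h replicate 3, 5 were lower (19.2%, against 9.73% of all genes), 1 was higher, and the median was -0.05. Mrps11, a protein of the platform with a bacterial counterpart, is on chromosome 7 at 78783119 to 78792989. It had 5.56, 6.39 and 5.89 CPM in the 16 h livers and 8.72, 8.25 and 13.5 CPM in the 4 h livers. The 16 h livers varied little, and 4 h replicate 3 stood at 1.59 times its mates. Mrps11 fell by 0.77 ± 0.20 on the log2 scale (edgeR adjusted p = 0.0191) and by 0.51 without 4 h replicate 3 (edgeR adjusted p = 0.0339). That p was 0.0735, 0.0543 and 0.0740 without 16 h replicates 1, 2 and 3. Mrps15, whose bacterial counterpart binds the rRNA early in assembly, is on chromosome 4 at 126046925 to 126055532. Mrps15 had 17.4, 17.8 and 21.2 CPM in the 16 h livers, against 23.8, 29.0 and 31.1 CPM in the 4 h livers. The groups did not overlap, and the change was -0.56 ± 0.13 (log2; edgeR adjusted p = 0.0140; 0.0197 without 4 h replicate 3; 0.0703 and 0.0724 without 16 h replicates 1 and 2).

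Mrps27, a pentatricopeptide repeat protein of the small subunit and so of a fold that binds RNA, lies on chromosome 13 at 99344786 to 99415562. Its promoter is printed above with its ETS motif. It had 12.5, 12.7 and 12.2 CPM in the 16 h livers and 15.7, 18.1 and 25.4 CPM in the 4 h livers. The 16 h livers were almost equal, and the 4 h livers spread upwards from them. Mrps27 fell by 0.66 ± 0.17 on the log2 scale (edgeR adjusted p = 0.0198) and by 0.42 without 4 h replicate 3 (edgeR adjusted p = 0.0232). Without 16 h replicate 1, 2 or 3 that p was 0.0648, 0.0700 and 0.0778. An antisense transcript, 6430562O15Rik, covers 24.2% of its exon bases. Mrps22, another mitochondria-specific protein and the second with its ETS motif printed above, lies on chromosome 9 at 98588730 to 98601660. Mrps22 had 17.3, 13.7 and 18.4 CPM at 16 h and 21.4, 22.4 and 23.97 CPM at 4 h. In this gene 4 h replicate 3 was close to its mates, at 1.09 times their mean, and the change was -0.45 ± 0.13 (log2; edgeR adjusted p = 0.0357; 0.0494 without 4 h replicate 3). Leaving out 4 h replicate 1 or 2 gave an edgeR adjusted p of 0.0663 and 0.0722, and leaving out 16 h replicate 1, 2 or 3 gave 0.0848, 0.149 and 0.0539.

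Mrps25, a mitochondria-specific protein, is on chromosome 6 at 92169525 to 92184033, and 69.8% of its exon bases lie under the antisense gene Nr2c2. It had 7.30, 8.44 and 7.66 CPM in the 16 h livers and 10.96, 11.3 and 17.1 CPM in the 4 h livers. Mrps25 fell by 0.75 ± 0.18 on the log2 scale (edgeR adjusted p = 0.0153; 0.0208 without 4 h replicate 3; 0.0641 and 0.0650 without 16 h replicates 1 and 3). Mrps28, which shares a domain with bacterial S1, is on chromosome 3 at 8802146 to 8923918. Mrps28 had 14.1, 15.1 and 15.9 CPM at 16 h and 19.2, 18.2 and 26.7 CPM at 4 h. Its groups were apart (-0.51 ± 0.15, edgeR adjusted p = 0.0377), but leaving out 4 h replicate 3 ended the call (-0.31, edgeR adjusted p = 0.0633), as did leaving out 16 h replicate 1, 2 or 3 (edgeR adjusted p of 0.129, 0.115 and 0.0901).

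Among the members of the small subunit that were looked at for their role, Mrps12, at the decoding centre, had 25.2 ± 2.2 CPM at 16 h and 29.0 ± 6.3 CPM at 4 h (edgeR adjusted p = 0.379). Mrps5 had 42.5 ± 3.7 CPM at 16 h and 47.7 ± 3.1 CPM at 4 h (edgeR adjusted p = 0.312). The proteins Mrps18b and Mrps18c belong to the same family as Mrps18a. Mrps18b had 11.3 ± 0.9 CPM at 16 h and 9.24 ± 1.44 CPM at 4 h (edgeR adjusted p = 0.202), and another gene covers 30.5% of its exons. Mrps18c had 4.25 ± 0.31 CPM at 16 h and 4.22 ± 0.48 CPM at 4 h (edgeR adjusted p = 0.987), and another gene covers 23.2%. Mrps26, picked after its values were seen, had 22.2, 26.3 and 23.6 CPM in the 16 h livers and 17.7, 19.8 and 27.9 CPM in the 4 h livers. The groups overlapped through 4 h replicate 3, and only without that library did Mrps26 pass the test (0.37, edgeR adjusted p = 0.0347). Mrps36, outside the ribosome, had 6.84 ± 0.29 CPM at 16 h and 8.62 ± 1.67 CPM at 4 h (edgeR adjusted p = 0.183).

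**Figure D4:**
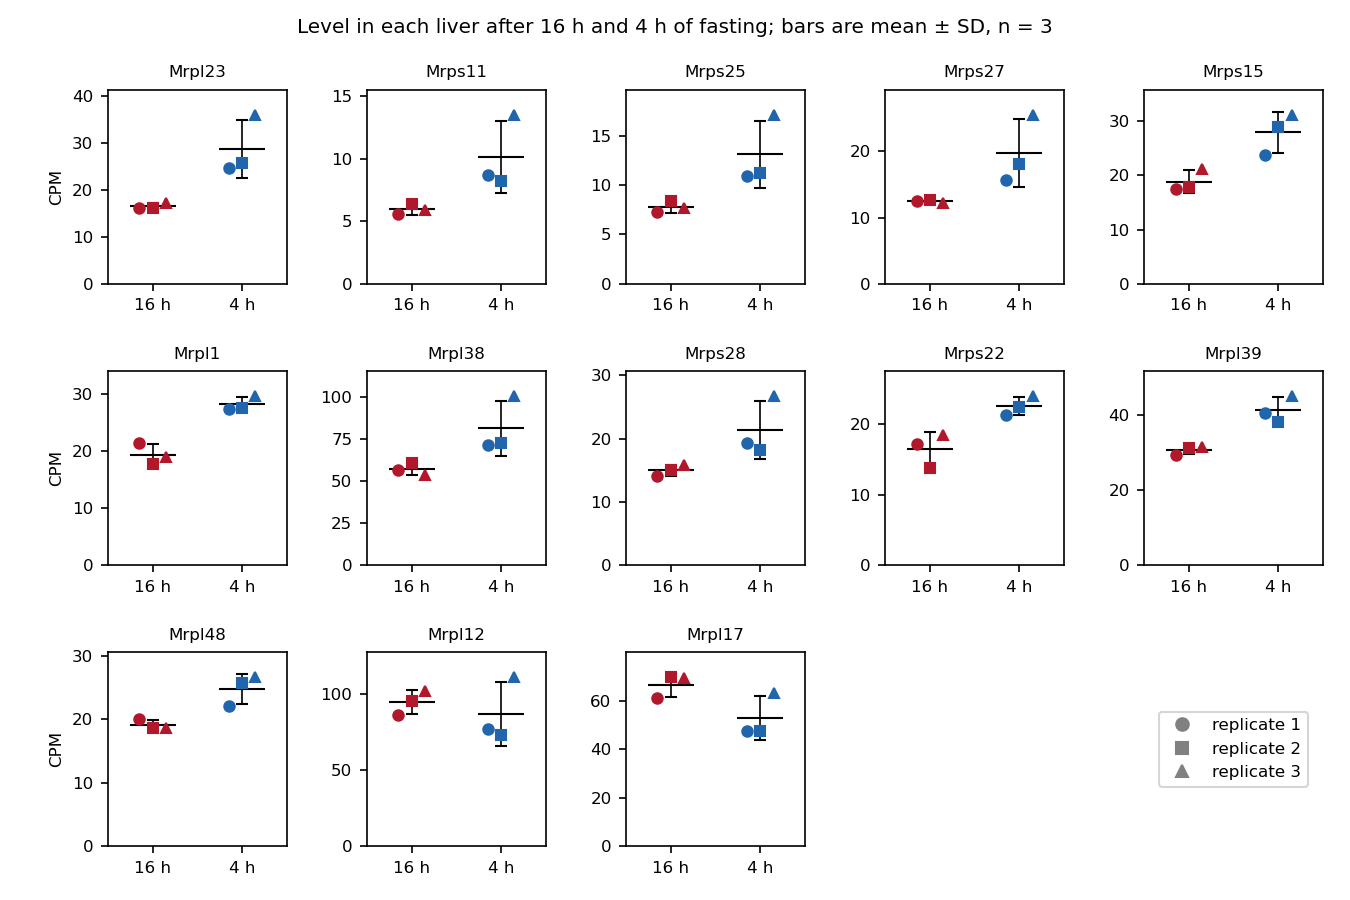
CPM in each liver (points, marked by replicate) with mean ± SD (n = 3) for the 11 members called lower, and for Mrpl12 and Mrpl17; 16 h livers are at the left of each panel and 4 h livers at the right, and axes start at 0. For the 11 called genes each 16 h point lies below each 4 h point, whereas 4 h replicate 3 brings the groups of Mrpl12 and Mrpl17 into overlap.

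By ancestry, 5 of 46 genes with a bacterial counterpart (10.9%) were lower, with a median log2 fold change of -0.20. Of 30 tested mitochondria-specific genes 6 (20.0%) were lower (median -0.23), against 9.51% of all genes. By edgeR 0 genes of either kind were higher, against 9.18% of all genes, as with DESeq2, against 10.2%. At an unadjusted p under 0.05 the counts of higher genes were 1 and 0, against 16.2%. Without 4 h replicate 3 the counts of lower genes were 4 of 46 (8.7%) and 5 of 30 (16.7%), against 9.73% of all genes. The medians were then -0.06 and -0.05, and 2 and 1 genes were higher (4.35% and 3.33%, against 11.1% of all genes). These groups were listed by hand, and Mrps28 was put with the bacterial counterparts after its values were seen, because of its domain shared with S1. Counted as mitochondria-specific instead, it made the counts 4 of 45 (8.89%) and 7 of 31 (22.6%), with medians of -0.20 and -0.24. No test was made of a difference between these groups, nor between the subunits. Summed over genes, the large subunit stood at 2.42, 2.34 and 2.36 times the small subunit in the 16 h livers and at 2.38, 2.28 and 2.46 times in the 4 h livers, ranges that overlapped.

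Levels per length are given as mean CPM per kilobase of the median protein-coding transcript. Mrps21 had 69.5 CPM per kilobase, Mrpl12 68.8, Mrpl30 66.1, Mrpl52 62.1, Mrpl42 61.2 and Mrpl20 57.0, the highest 6 of the family over all libraries. The order differed between the groups. Mrpl12 came first at 16 h with 71.6 CPM per kilobase, against 59.3 for Mrps21. At 4 h Mrps21 came first with 79.7, or 65.8 without 4 h replicate 3, and Mrpl12 had 65.9, or 56.8 without that library. Divided by all exon bases of the gene instead, Mrpl12 came first and Mrps21 the fourth, but Mrpl42 only 34th. At the low end stood Mrps25 with 1.72, Mrpl19 with 2.37 and Mrps30 with 3.60 CPM per kilobase. Antisense genes cover 36.0% of the exon bases of Mrpl19 and 9.35% of those of Mrps30, beside the 69.8% of Mrps25. None of Mrpl19, Mrps30 and the 6 genes at the top passed the test, with edgeR adjusted p between 0.0774 for Mrpl42 and 0.933 for Mrpl20. The largest spread within a group was that of Mrpl43, Mrps6, Mrpl57 and Mrps24. For each of them it was the 4 h group that spread, with 4 h replicate 3 highest: 12.01 CPM for Mrpl43, against 7.50 and 5.74 CPM in its mates, and 55.0 CPM for Mrps24, against 33.3 and 31.1 CPM. Other genes cover 33.4% of the exon bases of Mrpl43, 19.9% of those of Mrps6 and 15.4% of those of Mrps24.

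Members had short transcripts, with a median of 1226 bases, against 2688.5 bases for the 12270 protein-coding genes tested. The 1479 tested protein-coding genes with transcripts of at most that length had a median log2 fold change of -0.25, and 15.9% of them were lower and 2.37% higher. In 4 h replicate 3 these short genes stood at a median of 1.29 times their mates. The 39 members with short transcripts stood at 1.39 times and the 38 others at 1.26 times, with median log2 fold changes of -0.21 and -0.18. The part of transcript length in the members' changes was not tested.

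Another 5 mitochondrial ribosomal proteins carry other names. By edgeR 2 of their genes (40.0%) were lower, against 9.51% of all genes, and 0 were higher. Aurkaip1 had 38.3, 43.3 and 42.6 CPM in the 16 h livers and 51.0, 49.7 and 74.3 CPM in the 4 h livers. It fell by 0.49 ± 0.15 on the log2 scale (edgeR adjusted p = 0.0416; 0.0460 without 4 h replicate 3; 0.145, 0.107 and 0.111 without 16 h replicates 1, 2 and 3). Chchd1 had 14.9 ± 0.6 CPM at 16 h and 20.7 ± 4.4 CPM at 4 h (-0.48 ± 0.15, edgeR adjusted p = 0.0471). Leaving out 4 h replicate 3 ended that call, with an edgeR adjusted p of 0.0872, and so did leaving out 16 h replicate 1, 2 or 3, with 0.144, 0.125 and 0.126. Dap3, a GTP-binding subunit also known from studies of cell death, had 33.5 ± 1.9 CPM at 16 h and 41.7 ± 3.8 CPM at 4 h (edgeR adjusted p = 0.0659). The other two were Ptcd3, with 35.1 ± 1.2 CPM at 16 h and 32.4 ± 4.0 CPM at 4 h (edgeR adjusted p = 0.510), and Gadd45gip1, with 1.31 ± 0.30 CPM at 16 h and 2.10 ± 0.90 CPM at 4 h (edgeR adjusted p = 0.193). For Gadd45gip1, 42.0% of exon bases lie under an antisense gene.

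The rRNAs of the same ribosome were measured too, although the sources used here do not give how the libraries treated rRNA. The small-subunit rRNA gene mt-Rnr1 had 1498, 1839 and 1350 CPM in the 16 h livers and 2201, 2099 and 2372 CPM in the 4 h livers. The groups did not overlap and mt-Rnr1 fell by 0.51 ± 0.13 on the log2 scale (edgeR adjusted p = 0.0210; 0.0230 without 4 h replicate 3; 0.0858 and 0.105 without 16 h replicates 1 and 3). The large-subunit rRNA gene mt-Rnr2 had 2193, 2359 and 1891 CPM at 16 h, against 2379, 2179 and 2382 CPM at 4 h. Those groups overlapped, and the test was not passed (-0.11 ± 0.12, edgeR adjusted p = 0.562). Among 12 tested protein genes of mitochondrial DNA, which are what this ribosome translates, edgeR called 0 in either direction (also 0 at an unadjusted p under 0.05 and 0 with DESeq2), and their median log2 fold change was -0.05. Over all genes edgeR called 18.7%, an unadjusted p under 0.05 gave 17.3% lower and 16.2% higher, and DESeq2 gave 9.21% and 10.2%. The counts of mt-Co2, mt-Co3 and mt-Atp6 among the 12 are uncertain, because near-identical copies in the nuclear genome can share their reads. In addition, mt-Nd3 had only 2.46 CPM at 16 h and 2.53 CPM at 4 h, and mt-Nd4l 1.38 and 1.34 CPM. The count of 0 and the median rest in part on these weakly counted genes.

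Of 26 genes for assembly of the mitochondrial ribosome and modification of its rRNA, 1 (3.85%) was higher and 0 lower by edgeR. Over all genes the shares were 9.18% and 9.51%. An unadjusted p under 0.05 gave 2 higher and 4 lower, against 16.2% and 17.3%. DESeq2 gave 1 and 0, against 10.2% and 9.21%. The median log2 fold change of the list was 0.04. Trub2, a pseudouridine synthase, had 10.7, 10.1 and 12.3 CPM in the 16 h livers and 7.87, 7.22 and 8.36 CPM in the 4 h livers. It rose by 0.49 ± 0.14 on the log2 scale (edgeR adjusted p = 0.0319; 0.0179 without 4 h replicate 3), and antisense genes cover 17.1% of its exons. The edgeR adjusted p was 0.0686 and 0.0706 without 4 h replicates 1 and 2, and 0.0706, 0.0576 and 0.148 without 16 h replicates 1, 2 and 3. Dhx30, an RNA helicase and the most abundant gene of the list, had 31.4 ± 1.0 CPM at 16 h and 25.5 ± 1.0 CPM at 4 h. Dhx30 passed the test only without 4 h replicate 3 (0.34, edgeR adjusted p = 0.0223, against 0.0625 with all libraries).

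Among 18 tested translation factors and mRNA stabilisers, 2 (11.1%) were lower by edgeR, against 9.51% of all genes, and 0 were higher. An unadjusted p under 0.05 gave 4 lower and 2 higher, against 17.3% and 16.2% of all genes. DESeq2 gave 2 and 0, against 9.21% and 10.2%. Tufm, the elongation factor that brings tRNAs to the ribosome, had 71.9, 76.5 and 70.5 CPM in the 16 h livers and 93.5, 100.9 and 130.1 CPM in the 4 h livers. The groups were apart, and Tufm fell by 0.57 ± 0.13 on the log2 scale (edgeR adjusted p = 0.0117; 0.0051 without 4 h replicate 3; 0.0509 and 0.0623 without 16 h replicates 1 and 3). The other was Gatb (-0.44, edgeR adjusted p = 0.0161), a subunit of the enzyme that makes glutaminyl-tRNA in mitochondria. For Gatb that p was 0.0546, 0.0823 and 0.0736 without 4 h replicate 1, 16 h replicate 2 and 16 h replicate 3. Lrpprc, which stabilises mitochondrial mRNAs and was the most abundant, had 128.4 ± 2.6 CPM at 16 h and 123.3 ± 8.7 CPM at 4 h (edgeR adjusted p = 0.728). Its partner Slirp had almost no counts and did not enter the test, and antisense genes cover 97.8% of its exons.

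Of 19 mitochondrial tRNA synthetases 3 (15.8%) were lower and 0 higher by edgeR, with or without 4 h replicate 3. Of all genes 9.51% were lower, or 9.73% without that library. With all libraries an unadjusted p under 0.05 gave 5 lower and 1 higher, against 17.3% and 16.2% of all genes. DESeq2 gave 3 and 0, against 9.21% and 10.2%. Tars2, for threonine, fell most among the called genes, with 21.8 ± 1.6 CPM at 16 h and 32.2 ± 5.9 CPM at 4 h (-0.56 ± 0.14, edgeR adjusted p = 0.0162). The same p without 16 h replicates 1, 2 and 3 was 0.0522, 0.0508 and 0.0840. Fars2, for phenylalanine, was also lower (edgeR adjusted p = 0.0244). That call ended without 4 h replicate 1 or any 16 h library (edgeR adjusted p of 0.0621 to 0.117). Lars2, for leucine, had 321, 204 and 254 CPM in the 16 h livers and 245, 222 and 1221 CPM in the 4 h livers. Only 4 h replicate 3 was high, and the test was not passed (edgeR adjusted p = 0.406).

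For transcription and replication of mitochondrial DNA, 1 of 12 genes (8.33%) was higher by edgeR, against 9.18% of all genes, and 0 lower. An unadjusted p under 0.05 gave 1 higher and 1 lower, against 16.2% and 17.3% of all genes. DESeq2 gave 1 and 0, against 10.2% and 9.21%. Tfb2m, a transcription factor of mitochondria, had 31.3, 35.9 and 29.7 CPM in the 16 h livers and 25.6, 21.2 and 17.1 CPM in the 4 h livers. It rose by 0.60 ± 0.15 on the log2 scale (edgeR adjusted p = 0.0175; 0.0869 without 16 h replicate 2). Tfam, which packages mitochondrial DNA, had 47.2 ± 2.6 CPM at 16 h and 43.2 ± 2.5 CPM at 4 h (edgeR adjusted p = 0.421). Of 10 mitochondrial chaperones and proteases 1 was higher by edgeR, a share close to the 9.18% of all genes. By the same test 0 were lower, against 9.51%. Counts at an unadjusted p under 0.05 were 2 higher and 2 lower, against 16.2% and 17.3% of all genes. With DESeq2 they were 2 and 0, against 10.2% and 9.21%. The gene called by edgeR was Clpx, the unfoldase partner of the protease ClpP. Clpx had 379, 293 and 416 CPM in the 16 h livers and 248, 201 and 117 CPM in the 4 h livers. The groups were apart (0.94 ± 0.26, edgeR adjusted p = 0.0353), but leaving out 4 h replicate 2, 16 h replicate 1 or 16 h replicate 3 ended the call (edgeR adjusted p of 0.122, 0.0832 and 0.105). Hspa9, the most abundant of the 10, had 612 ± 14.4 CPM at 16 h and 529 ± 43.0 CPM at 4 h (edgeR adjusted p = 0.198).

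Among 10 regulators of nuclear genes for mitochondria, 2 were higher and 1 lower by edgeR, against 9.18% and 9.51% of all genes. The count of 1 lower was thus close to the share of all genes. Counts at an unadjusted p under 0.05 were also 2 higher and 1 lower, against 16.2% and 17.3%. They were the same with DESeq2, against 10.2% and 9.21%. Both coactivators of the PGC-1 pair were called by edgeR, in opposite directions. Ppargc1a, which encodes PGC-1alpha, had 15.3, 22.7 and 17.8 CPM in the 16 h livers and 6.95, 12.5 and 8.30 CPM in the 4 h livers. It rose by 1.02 ± 0.22 on the log2 scale (edgeR adjusted p = 0.0096), with an edgeR adjusted p of 0.0709 without 4 h replicate 3. Ppargc1b, which encodes PGC-1beta, had 5.74, 7.59 and 5.23 CPM in the 16 h livers and 9.64, 12.1 and 15.6 CPM in the 4 h livers. Ppargc1b fell by 1.01 ± 0.20 on the log2 scale (edgeR adjusted p = 0.0056), and kept its call without any 1 library. Esrra, a nuclear receptor that works with both, had 46.0, 55.1 and 60.0 CPM at 16 h and 32.8, 37.8 and 43.0 CPM at 4 h. Esrra rose by 0.51 ± 0.13 on the log2 scale (edgeR adjusted p = 0.0228; 0.0666, 0.0867 and 0.109 without 4 h replicate 1, 16 h replicate 2 and 16 h replicate 3). Yy1, the most abundant, had 86.7 ± 3.5 CPM at 16 h and 85.2 ± 5.0 CPM at 4 h (edgeR adjusted p = 0.890). Members with and without a motif in their promoter window had median log2 fold changes of -0.20 and -0.21 for NRF1, -0.21 and -0.20 for ETS, and -0.24 and -0.20 for YY1. For the E-box the medians were -0.01 in 5 members with it and -0.22 in 63 without it, and no test was made.

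**Figure D5:**
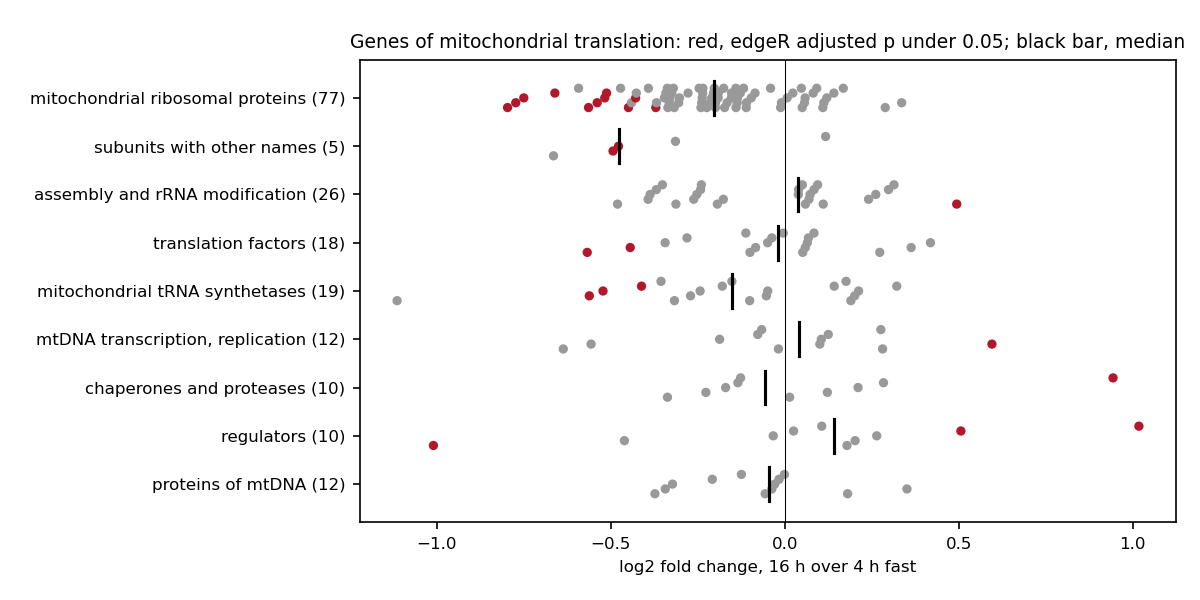
Log2 fold change, 16 h over 4 h, of each tested gene in the members and in 8 lists of mitochondrial translation, with the number of genes in brackets; red points have an edgeR adjusted p under 0.05 and black bars are medians. The members, the subunits with other names, the translation factors and the tRNA synthetases have red points at the left of 0 only. Assembly, transcription of mitochondrial DNA and chaperones have 1 red point each, at the right. Each of these 3 lists thus rests on a single called gene, and 9.18% of all genes were higher.

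Set beside the members, 7 of 75 cytosolic ribosomal protein genes (9.33%) were lower and 0 higher by edgeR (32 lower and 0 higher at an unadjusted p under 0.05, 15 and 0 with DESeq2), with a median log2 fold change of -0.30. Of 76 nuclear genes of oxidative phosphorylation 3 (3.95%) were lower and 0 higher by edgeR (11 lower and 0 higher at an unadjusted p under 0.05, 3 and 0 with DESeq2), with a median of -0.24. By edgeR both shares of lower genes were at or below the 9.51% of all genes. Over all genes 17.3% were lower at an unadjusted p under 0.05 and 9.21% with DESeq2. The cytosolic counts by these measures lay above those shares, whereas those for oxidative phosphorylation lay below. The groups were apart, lower after 16 h, for 42.7% of the cytosolic and 13.2% of the oxidative phosphorylation genes, against 19.7% of all genes. Without 4 h replicate 3 the medians were -0.11 and -0.03, and 6 and 1 genes were lower (8.0% and 1.32%, against 9.73% of all genes). These are the same libraries as for the members, and no test of a difference between the families was made. Many cytosolic ribosomal protein genes have processed pseudogenes that can share their reads, so their counts are less certain.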

How the data were processed

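Total RNA of 6 livers was sequenced, and the authors deposited raw read counts for each Ensembl gene, with a table for every library. Per the submitters' processing notes, reads were trimmed with Trimmomatic, checked with FastQC, aligned with STAR to GRCm38 (mm10) and counted with HTSeq, and DESeq2 was named for the authors' own comparison. Versions, library kit, strand setting and annotation release: not given in the sources used here. A read in exons of more than 1 gene is assigned to none, so overlap is printed beside described members that share 15% or more of their exons, as 12 of the 78 do.

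Symbols, positions and transcript lengths came from GENCODE M21 (GRCm38), which holds 55144 of the 55471 gene identifiers (99.41%). Symbols that match the rule but are annotated as pseudogenes were left out, 5 in all. The 5 summary lines of each table were not used in library sizes or tests. Reads in no gene were 6.44% to 7.14% and reads in several genes 5.78% to 6.59% of the reads tallied per library.

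All genes were tested together with edgeR 4.0.16 in R 4.3.3 (filterByExpr, TMM scaling, robust quasi-likelihood fit, fasting group as the only term, 2-sided). Of them 13812 were kept, with 99.88% of the counts, with Benjamini-Hochberg adjustment over all of these and a threshold of 0.05. The biological coefficient of variation was 14.3%. CPM use TMM-scaled sizes. The limit set by a count of 0 is 3 counts and covers counting error only. Libraries of a group were no duplicates (chi-square per degree of freedom of 17.3 to 68.5 over genes with at least 50 counts). The p-values weigh the difference between the groups against the spread between the 3 livers of a group. That spread was estimated with the help of all genes tested. The fit was tested on simulated data.

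Members and lists were chosen with earlier results of these data known. Subunit, ancestry and pathway lists were written by hand. Named by rule were the called members, the 6 highest and 3 lowest per kilobase, the 4 with the largest spread within a group, 9 chosen for their role and any not tested; in other lists, the largest called rise and fall and the most abundant gene. Genes named beyond these are the remaining called genes of a list or are said to be picked later. Alternatives were other scalings, no filter, DESeq2 1.42.0, a replicate block, leaving out genes of mitochondrial DNA, and leaving out each library. Values of lists without 4 h replicate 3 were added after seeing the data. Values of 1 called gene of a pathway list are not reported here.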

Additional observations from a re-analysis of the deposited data

How the results depend on the processing

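With DESeq2 size factors, plain totals, no filter, DESeq2, a replicate block or without genes of mitochondrial DNA, between 10 and 13 members were lower and the median log2 fold change lay between -0.22 and -0.18. Of all genes 9.30%, 9.97%, 5.80%, 4.77%, 10.1% and 9.49% were lower in these 6 settings, taken in the same order. With no filter and with DESeq2 the share is of 26801 genes. The count of higher members was 1 with no filter and 0 in the other 5 settings. Leaving out 1 library at a time gave 2 to 12 members called, 2 to 12 lower, 0 to 3 higher, and a median of -0.26 to -0.06. Over all genes the same gave 1367 to 2987 called, 671 to 1594 higher and 696 to 1393 lower. The lowest counts of members came from leaving out a 16 h library, and the cause was not tested. Over all tested members, 62 lay below 0 with all libraries and 48 without 4 h replicate 3. Among the members named by rule, signs turned for 5 that were not called. Mrps18c was at -0.012 with plain totals and ranged from -0.048 to 0.097 without 1 library, Mrpl20 from -0.082 to 0.233, Mrpl43 from -0.064 to 0.457, Mrpl57 from -0.458 to 0.000 and Mrps24 from -0.251 to 0.189. Of the other values of named genes, 325 kept direction and call, 34 lost a call and 4 gained one. With the replicate number as a block, 13 members were lower, among them Mrpl14, Mrps14 and Mrpl42, and Mrpl48 was lost. Whether equal numbers pair the livers could not be settled with 3 libraries per group. Correlations of deviations were 0.09, 0.09 and 0.05 within numbers and -0.14 to 0.07 across. Replicate 3 of the 16 h livers correlated best with 4 h replicate 1. With the block 19.9% of all genes were called, against 18.7% without it. Depth limits the weaker members, since Mrps6 had 43 counts in a library, and a change of Mrpl53 was not detectable.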

Other observations

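Some members share a promoter region with a neighbour on the opposite strand. A protein-coding start within 1000 bp upstream on the other strand was found for 18 of 77 tested members (23.4%), against 10.1% of 12270 protein-coding genes, a description with no test. Mrps12 lies 172 bp from Sars2, a mitochondrial tRNA synthetase, which had 8.59, 8.50 and 9.96 CPM in the 16 h livers and 9.38, 9.73 and 13.004 CPM in the 4 h livers (edgeR adjusted p = 0.315). Mrps27, which was lower, lies 81 bp from Ptcd2, which had 18.5, 19.5 and 23.8 CPM in the 16 h livers and 19.2, 21.4 and 22.5 CPM in the 4 h livers (edgeR adjusted p = 0.912). Mrps11 and Mrpl46 overlap at their starts on opposite strands. Mrps11 was lower, whereas Mrpl46 had 15.8, 17.2 and 15.3 CPM in the 16 h livers and 16.2, 14.6 and 22.2 CPM in the 4 h livers (edgeR adjusted p = 0.577).

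The neighbours named here were picked after their values were seen. Of the 17 tested, 4 passed the test, and over all genes 18.7% did. Klc4, beside Mrpl2, fell by 0.46 on the log2 scale (edgeR adjusted p = 0.0109), Mitd1, beside Mrpl30, by 0.44 (edgeR adjusted p = 0.0442), and Pnpla7, beside Mrpl41, by 0.49 (edgeR adjusted p = 0.00912). Eme2, which starts 29 bp from Mrps34, had 5.78, 6.63 and 5.02 CPM in the 16 h livers and 1.91, 2.58 and 2.61 CPM in the 4 h livers and rose by 1.30 ± 0.21 on the log2 scale (edgeR adjusted p = 0.00164). Mrps34 had 19.1, 20.1 and 23.6 CPM in the 16 h livers and 14.6, 19.7 and 21.9 CPM in the 4 h livers and did not pass (edgeR adjusted p = 0.485). Other genes cover 77.8% of its exons.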
